A study of Homo sapiens with 8 samples.

Results

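The 9 genes described here form the core of the Sonic hedgehog pathway: the ligand gene SHH, the ligand-binding genes PTCH1, BOC, CDON and HHIP, the signal transducer SMO, and the transcription factor genes GLI1, GLI2 and GLI3. The list was chosen, with earlier results of these data known, for the rise of HHIP together with the fall of SHH in treated cells. All treated-against-vehicle values of these 9 genes are therefore a description and carry no test. All 9 are among the 62826 genes listed in the deposited tables and among the 19785 that passed the filter on low counts.

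RNA sequencing was done on LUHMES cells, a human line of mesencephalic origin with a switchable immortalising gene, of WT genotype, which the labels class as dopaminergic neurons. All cells were differentiated for 6 days with tetracycline (1 µg/mL), GDNF (2 ng/mL) and dbcAMP (1 mM), a cell-permeable cAMP analogue that both groups therefore share. The treated group then received antimycin A (25 µM), which blocks complex III of the respiratory chain, and oligomycin (10 µM), which blocks the ATP synthase, for 8 h, and the vehicle group received DMSO. Each group comprised 4 independent batches, with 4 technical replicates per batch according to the series text and 1 library per number in the deposited tables (n = 4 per group). The labels of both groups carry the same differentiation numbers, 2 to 5. Only 1 cell line was used. In bulk RNA, fewer cells that express a gene and less RNA of it per cell cannot be told apart.

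Sonic hedgehog is a secreted, lipid-modified morphogen that patterns the ventral neural tube, where midbrain floor plate cells, the source of dopaminergic neurons, make it. Without ligand, the receptor Patched 1 (PTCH1) keeps Smoothened (SMO) out of the primary cilium, and protein kinase A, which cAMP activates, promotes the cutting of GLI2 and GLI3 into repressors. Ligand binding to Patched 1 and its co-receptors BOC and CDON releases Smoothened, full-length GLI proteins then activate target genes, and GLI1, PTCH1 and the decoy receptor gene HHIP are themselves classical targets that serve as readouts and feedback.

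The libraries held between 93.7 and 110.0 M estimated reads. Levels are given in TPM, transcripts per M scaled by effective length, which compares genes, or in CPM, counts per M on scaled library sizes, which compares libraries. Treated libraries separated from vehicle libraries on the first principal component of log2 CPM (71.5% of the variance), and the second (10.3%) set vehicle library 2 at -54.8 against 14.5 to 22.9 for the other vehicle libraries. Messages of the mitochondrial genome took 11.47% of the reads in vehicle library 2, 3.266% to 4.33% in the other vehicle libraries and 2.142% to 2.899% in treated libraries. All 10 neuron markers exceeded 1 CPM in at least 1 library, with a summed level of 4690 to 4910 TPM in treated and 5430 to 6760 TPM in vehicle libraries. Of 10 dopaminergic markers, DDC, SLC18A2, PITX3 and ALDH1A1 stayed under 1 CPM in every library (summed level 362 to 403 TPM treated, 362 to 468 TPM vehicle). Most of this sum was SLC6A3, at a mean of 326 TPM in treated and 366 TPM in vehicle cells. Of the 8 dopaminergic markers tested, 2 were higher and 2 lower in treated cells. Mean TH was 24.9 TPM in treated and 10.6 TPM in vehicle cells, and mean EN1 was 16.7 and 29.7 TPM. The summed level of 6 cell cycle markers was at most 110.0 TPM in treated and 128 to 208 TPM in vehicle libraries.

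In treated neurons the ligand message was lower and the decoy receptor message higher, so that the order of the pair was inverted. In the all-gene fit (edgeR quasi-likelihood test, Benjamini-Hochberg adjusted p under 0.05), 4 of the 9 genes were past the threshold and higher (HHIP, GLI1, CDON, PTCH1), 3 were past it and lower (SHH, SMO, GLI2), and BOC and GLI3 were not past it. Of all genes tested, 57.9% passed in either direction, 27.7% higher and 30.2% lower, and since the list was chosen on this contrast nothing is read from its count. The CPM ranges of the groups did not overlap for 7 of the 9 genes, against 53.4% of all genes tested. The median log2 fold change was 0.24 over the 9 genes and -0.02 over all genes.

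**Figure D1:**
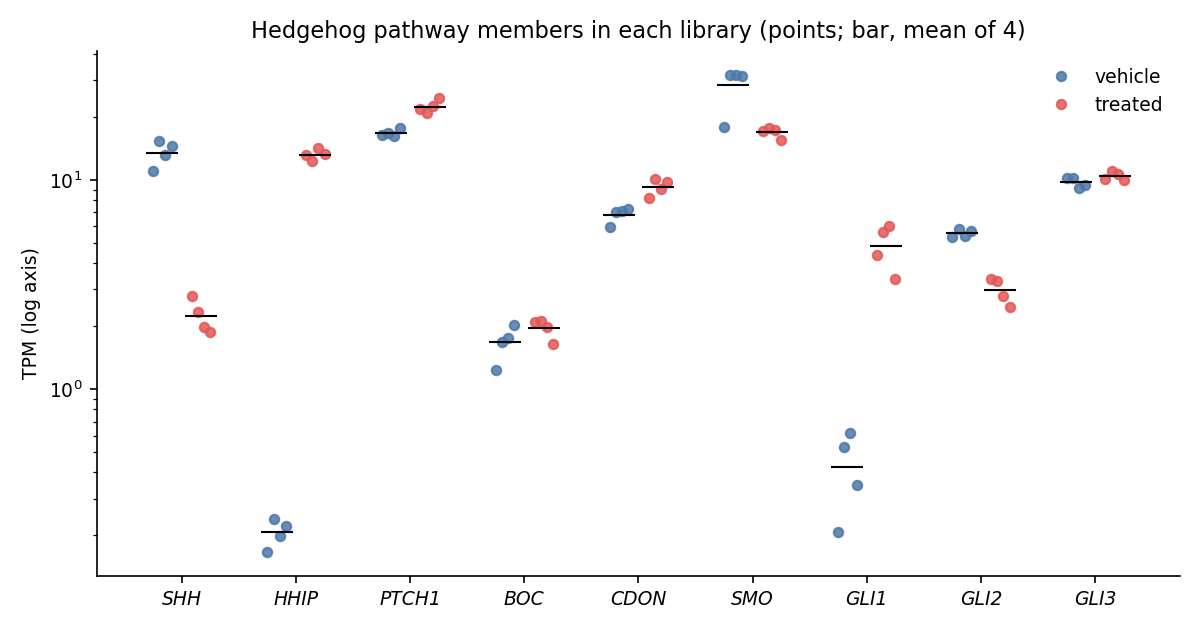
Level of the 9 genes in each library in TPM (vertical log axis), with vehicle libraries in blue, treated libraries in red, numbers 2 to 5 from left to right within a group, and a bar at the mean of 4. SHH lies at 11 to 15.3 TPM in vehicle and 1.87 to 2.80 TPM in treated libraries, while HHIP lies at 0.167 to 0.240 and 12.3 to 14.2 TPM.

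SHH encodes the ligand (ENSG00000164690.8, chr7:155799986-155812273, minus strand, hg38). Its level was 11, 15.3, 13.2 and 14.5 TPM in vehicle libraries 2 to 5, and 2.80, 2.35, 1.99 and 1.87 TPM in treated libraries 2 to 5. The lowest vehicle library was thus far above the highest treated one. The mean was 13.5 ± 1.88 TPM (SD, n = 4) in vehicle and 2.25 ± 0.418 TPM (SD, n = 4) in treated cells, 5.99-fold lower. The values rest on 2314 to 3111 estimated reads per vehicle library and 348 to 576 per treated library. On the count scale the level was 26.5 ± 0.977 CPM in vehicle and 4.72 ± 0.960 CPM in treated cells (SD, n = 4), a log2 fold change of -2.49 (SE 0.133). Across all genes tested, 80 had a more negative log2 fold change than SHH.

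HHIP encodes a membrane-anchored protein that binds hedgehog ligands and sequesters them (ENSG00000164161.10, chr4:144646021-144745271, plus strand, hg38). Vehicle libraries 2 to 5 gave 0.167, 0.240, 0.198 and 0.222 TPM, from 27, 36, 31 and 40 reads. Treated libraries 2 to 5 gave 13.2, 12.3, 14.2 and 13.3 TPM, from 3588, 3596, 3895 and 4131 reads. The gene thus went from the lowest level of the 9 to a level near that of SHH in vehicle cells, with little spread inside either group. The mean was 0.207 ± 0.0316 TPM in vehicle and 13.2 ± 0.766 TPM in treated cells (SD, n = 4), 64.1-fold higher.

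The size of the HHIP difference depended on whether gene length was taken into account. By counts, the level was 0.317 ± 0.0225 CPM in vehicle and 39.2 ± 3.12 CPM in treated cells (SD, n = 4), a log2 fold change of 6.94 (SE 0.106), and it was 6.06 when the deposited effective lengths entered the fit as an offset. The mean effective length assigned to HHIP was 5311 bases in treated and 2867 bases in vehicle libraries, 85.2% longer. Of all genes tested, 15 had a larger log2 fold change than HHIP. In the authors' deposited table, the log2 fold change was 6.67 for HHIP and -2.45 for SHH.

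The ratio of SHH to HHIP in TPM was 65.8, 63.8, 66.7 and 65.2 in vehicle libraries 2 to 5. In treated libraries 2 to 5 it was 0.211, 0.191, 0.14 and 0.141. By whole-gene TPM, ligand message therefore exceeded decoy message in all 4 vehicle libraries, and the decoy exceeded the ligand by 4.73-fold to 7.14-fold in all 4 treated libraries. These treated HHIP values include short non-coding forms, which make the fold larger. The long coding transcript HHIP-201 alone was at 6.33, 7.04, 6.62 and 7.69 TPM in treated libraries 2 to 5. The coding transcript SHH-201 was at 2.49, 2.21, 1.86 and 1.74 TPM there.

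Transcript estimates show which form of HHIP carried the reads. HHIP-201, the long coding transcript (9937 bases), was at 0.0350 ± 0.00950 TPM in vehicle and 6.92 ± 0.591 TPM in treated cells (SD, n = 4). HHIP-202, a shorter coding transcript (1770 bases), was at 0.172 ± 0.0262 TPM in vehicle and 2.41 ± 0.565 TPM in treated cells (SD, n = 4). Both forms were higher, and the long one took 90.5% to 94.2% of HHIP reads in treated against 48.4% to 60.0% in vehicle libraries. The short non-coding forms HHIP-203, HHIP-205 and HHIP-207 were at means of 1.92, 1.02 and 0.81 TPM in treated cells and 0 TPM in vehicle cells. Each came from 1.44% or less of HHIP reads. With 27 to 40 HHIP reads per vehicle library, the vehicle shares rest on few reads, and the error of dividing reads between transcripts was not analysed here. For SHH, the coding transcript SHH-201 (4650 bases) held 98.8% to 99.4% of the reads in vehicle and 99.1% to 99.6% in treated libraries, so the level of SHH differed with no such difference in its transcripts.

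**Figure D2:**
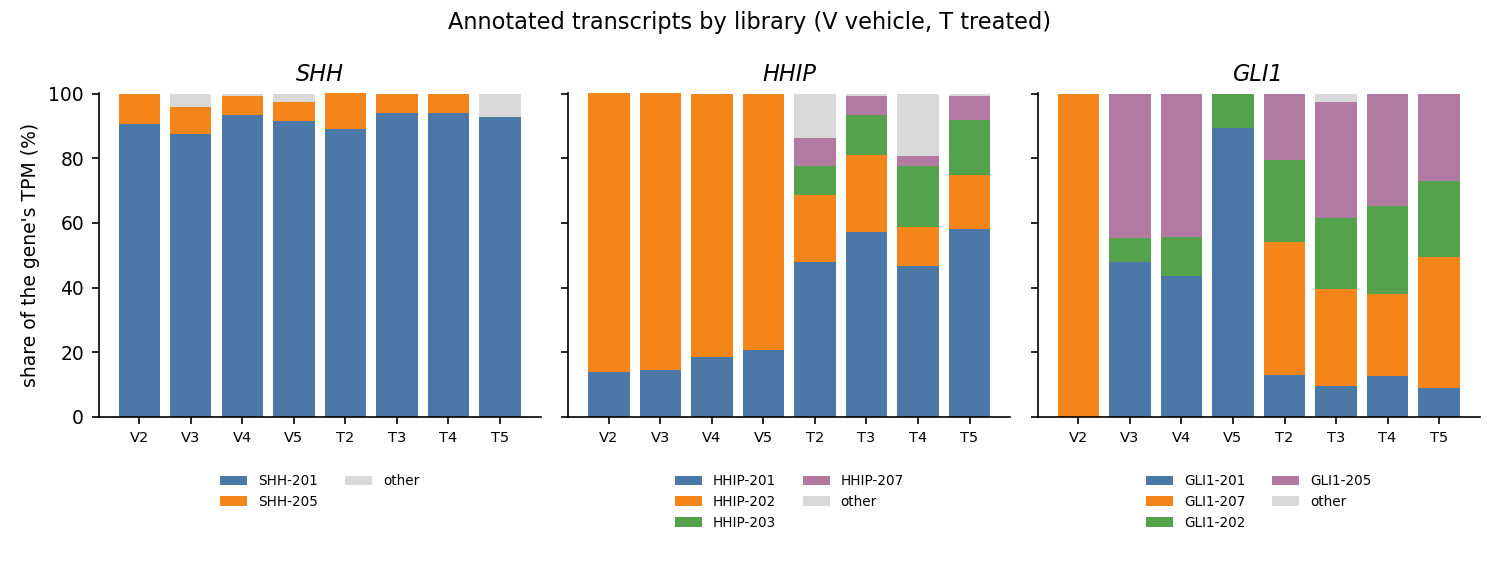
Share of each gene's TPM (vertical axis, %) assigned to annotated transcripts of SHH, HHIP and GLI1 in vehicle (V) and treated (T) libraries 2 to 5; grey is the sum of other transcripts. SHH-201 dominates in all 8 libraries, HHIP-201 takes 13.8% to 20.8% of HHIP TPM in vehicle and 46.7% to 58.0% in treated libraries, and the GLI1 bars of vehicle libraries differ from each other.

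An antisense gene, HHIP-AS1 (ENSG00000248890.4, chr4:144642922-144661357, minus strand, hg38), overlaps the start of HHIP. The annotations differ on where it begins: RefSeq places its start site 136 bases from that of HHIP, in the opposite direction, and GENCODE release 29 extends the gene to a start 15.3 kb inside HHIP. HHIP-AS1 rose from 0.633 ± 0.0819 to 2.89 ± 0.0840 CPM (SD, n = 4; log2 fold change 2.19, adjusted p = 4.5e-07, edgeR), the same direction as HHIP with a smaller fold. In GENCODE release 29 the genes share 178 exon bases, 11.4% of those of HHIP-AS1 and 1.47% of those of HHIP. No source used here states whether reads were counted by strand, so reads of the shared bases may belong to either gene.

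A stretch between the RefSeq start sites is shown because it lies in the windows of both genes and holds the palindromic cAMP response element TGACGTCA, in capitals below, 68 to 75 bases before the RefSeq start of HHIP (chr4:144646070-144646099, plus strand, GRCh38.p14). GENCODE release 29 places it in the first exon, untranslated, of HHIP-201. The motif was chosen after the sequences were seen, and a match is a description of letters, not of a bound site.
HHIP upstream stretch: gcgagaagcggTGACGTCAaggggcgcgct
The same letters occur on either strand in 649 of 35116 RefSeq promoter windows (1.85%), each running from 250 bases before to 50 bases after a start site. RefSeq promoter windows were matched for 7 of the 9 genes (15 windows), and the HHIP window was the only one of the 15 with this element.

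PTCH1, the receptor that holds Smoothened inactive, was modestly higher in treated cells, and the size of this difference in TPM depended on short transcripts. Its level was 16.4, 16.7, 16.3 and 17.7 TPM in vehicle libraries 2 to 5 and 21.8, 20.8, 22.6 and 24.7 TPM in treated libraries 2 to 5. The groups did not overlap, but the step was small beside that of HHIP. The mean was 16.8 ± 0.611 TPM in vehicle and 22.4 ± 1.66 TPM in treated cells (SD, n = 4), 1.34-fold higher, with a log2 fold change by counts of 0.24 (SE 0.0579). This fold change was 0.47 with the length offset, and 0.14 and no longer past the threshold when libraries were scaled by their read totals alone. PTCH1-224, an annotated coding transcript of 539 bases, was at 0, 0, 4.2 and 3.34 TPM in vehicle libraries 2 to 5 and at 7.5, 5.24, 7.69 and 8.75 TPM in treated libraries 2 to 5, from 3.38% or less of PTCH1 reads. Without it, PTCH1 was at 14.9 ± 2.14 TPM in vehicle and 15.1 ± 0.734 TPM in treated cells (SD, n = 4), and the ranges overlapped. Other short forms were left in this value and also differed between libraries. PTCH1-219 (578 bases) was at 3.66, 1.23, 0 and 1.13 TPM in vehicle and 0.799 to 1.26 TPM in treated libraries. PTCH1-225 (809 bases) was at 3.25 TPM in vehicle library 3 and at 0 TPM in all others. The value without all short forms was not computed. The mean effective length of PTCH1 was 4145 bases in treated and 4864 bases in vehicle libraries, 14.8% shorter. PTCH1 (chr9:95442980-95517057, minus strand, hg38) has several annotated start sites, and only 60.8% to 73.3% of its TPM fell on transcripts of the annotation used here. This share was lower still for CDON (23.9% to 38.1%) and GLI3 (29.1% to 42.9%), and it was 66.4% to 100% for BOC. It was at least 97.4% for the remaining members.

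One of the 5 RefSeq windows of PTCH1 held the GLI binding site GACCACCCA, read on the other strand as TGGGTGGTC. The 250 bases before that start site are printed because PTCH1 is a classical GLI target and no other window of the 15 held these letters (chr9:95509267-95509516, minus strand, GRCh38.p14). The capitals mark the match, 164 to 172 bases before the start site, in an intron of longer PTCH1 transcripts.
PTCH1 upstream sequence: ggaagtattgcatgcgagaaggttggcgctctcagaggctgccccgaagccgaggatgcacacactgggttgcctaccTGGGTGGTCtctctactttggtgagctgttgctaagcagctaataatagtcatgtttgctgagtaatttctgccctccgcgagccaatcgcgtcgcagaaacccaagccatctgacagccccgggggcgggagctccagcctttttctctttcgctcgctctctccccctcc
Of all 35116 windows, 83 (0.236%) held these letters on either strand. The HHIP window did not hold them, which speaks only of this window and these letters. The ATF and C/EBP composite core TGATGCAA (0.866% of all windows) and the unfolded protein response element core TGACGTG (1.97%) occurred in none of the 15 windows.

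The co-receptor genes BOC and CDON encode cell-surface proteins of the immunoglobulin family that present ligand to Patched 1. CDON (chr11:125955796-126063335, minus strand) was at 5.93, 7.0, 7.14 and 7.25 TPM in vehicle libraries 2 to 5 and at 8.16, 10.1, 9.09 and 9.80 TPM in treated libraries 2 to 5. All treated values were above all vehicle values, by 1.36-fold on average (6.83 ± 0.610 to 9.28 ± 0.858 TPM, SD, n = 4). BOC (chr3:113211003-113287459, plus strand) was at 1.24, 1.69, 1.75 and 2.03 TPM in vehicle and 2.10, 2.12, 1.98 and 1.64 TPM in treated libraries, in the same order. Its ranges overlapped, and the mean was 1.68 ± 0.326 TPM in vehicle and 1.96 ± 0.223 TPM in treated cells (SD, n = 4). Its log2 fold change was 0.26 (SE 0.136), and 0.37 and past the threshold without treated library 5.

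SMO, the transducer that Patched 1 restrains, was lower in treated cells, with 1 vehicle library far from the others. Its level was 18.0, 31.9, 31.8 and 31.4 TPM in vehicle libraries 2 to 5 and 17.2, 17.7, 17.3 and 15.5 TPM in treated libraries 2 to 5. Vehicle library 2, the one set apart on the second principal component, lay just above the treated range. The mean was 28.3 ± 6.84 TPM in vehicle and 16.9 ± 0.986 TPM in treated cells (SD, n = 4), 1.67-fold lower. The log2 fold change by counts was -0.69 (SE 0.155) with all libraries and -0.81 without vehicle library 2. The coding transcript SMO-201 (3977 bases) took 97.7% to 98.5% of SMO reads in vehicle and 95.7% to 98.0% in treated libraries.

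PTCH1 message was at 0.912, 0.525, 0.513 and 0.563 of SMO message in vehicle libraries 2 to 5, by TPM. In treated libraries 2 to 5 the ratio was 1.27, 1.17, 1.30 and 1.59. SMO (chr7:129188872-129213545, plus strand, hg38) was the most abundant of the 9 messages in vehicle cells, and PTCH1 was so in treated cells only with PTCH1-224 counted. Without that transcript, treated PTCH1 (14.3, 15.5, 14.9 and 15.9 TPM) was below SMO in treated libraries 2, 3 and 4 and just above it in library 5.

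The GLI genes differed in direction: GLI1 was higher, GLI2 lower and GLI3 at a similar level. GLI1 (chr12:57460135-57472262, plus strand) encodes the GLI protein that acts as an activator only. Its level was 0.208, 0.532, 0.617 and 0.347 TPM in vehicle libraries 2 to 5 and 4.40, 5.67, 6.03 and 3.35 TPM in treated libraries 2 to 5. The lowest treated library, number 5, still lay well above the highest vehicle library. The mean was 0.426 ± 0.184 TPM in vehicle and 4.86 ± 1.22 TPM in treated cells (SD, n = 4), 11.4-fold higher. By counts the level was 0.522 ± 0.0701 CPM in vehicle and 4.5 ± 0.915 CPM in treated cells (SD, n = 4), a log2 fold change of 3.10 (SE 0.185), and 3.64 with the length offset.

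The GLI1 transcripts to which reads were assigned bear on its TPM. In treated libraries the coding transcript GLI1-207 (3394 bases) took 55.9% to 72.9% of GLI1 reads and GLI1-201 (3972 bases) took 18.1% to 31.8%. The retained-intron transcripts GLI1-202 and GLI1-205 were at 1.20 ± 0.350 and 1.48 ± 0.672 TPM (SD, n = 4) in treated cells. In vehicle libraries GLI1-207 took from 0% to 100% of the few reads, so no transcript makeup can be given there. The mean effective length of GLI1 was 1679 bases in treated and 2547 bases in vehicle libraries, 34.1% shorter.

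The genes around GLI1 were examined after its values were seen, within 10 kb of its ends. INHBE, which encodes an activin subunit, lies on the same strand and ends 854 bases before GLI1 begins (chr12:57452323-57459280). It rose from 14.2 ± 1.25 to 258 ± 12.3 CPM (SD, n = 4; log2 fold change 4.19, adjusted p = 6.1e-10, edgeR). ARHGAP9, whose end overlaps that of GLI1 on the opposite strand, rose from 4.28 ± 0.362 to 29.2 ± 5.05 CPM (2.77, adjusted p = 1.5e-07). MARS1, the methionyl-tRNA synthetase gene, which begins 3182 bases after GLI1 ends on the same strand, rose from 164 ± 8.96 to 455 ± 28.1 CPM (1.47, adjusted p = 1.3e-07). GLI1 was thus higher in treated cells together with all 3 tested genes next to it, and the part of reads from these neighbours in its level was not tested.

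GLI2 (chr2:120735623-120992653, plus strand), the main activator early in the response, was at 5.35, 5.80, 5.42 and 5.72 TPM in vehicle libraries 2 to 5. Treated libraries 2 to 5 gave 3.37, 3.30, 2.80 and 2.48 TPM, all below the vehicle range. The mean was 5.57 ± 0.221 TPM in vehicle and 2.99 ± 0.423 TPM in treated cells (SD, n = 4), 1.87-fold lower. GLI3 (chr7:41960950-42237870, minus strand), the main source of GLI repressor, was at 10.2, 10.2, 9.15 and 9.49 TPM in vehicle and 10.1, 11.1, 10.7 and 9.99 TPM in treated libraries, and the ranges overlapped. Its log2 fold change was 0.19 (SE 0.105) with all libraries, and 0.31 and past the threshold without vehicle library 2.

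Summed over the 3 genes, GLI message was 15.2 to 16.5 TPM in vehicle and 15.8 to 20 TPM in treated libraries. GLI1 made up 1.32% to 4.06% of this sum in vehicle and 21.2% to 30.9% in treated libraries. GLI2 made up 33.9% to 36.8% in vehicle and 14.4% to 18.8% in treated libraries, and GLI3 60.3% to 64.8% and 54.7% to 63.2%. By whole-gene TPM, GLI3 was the largest part in all 8 libraries, but only 29.1% to 42.9% of its TPM fell on annotated transcripts. Its coding transcript GLI3-201 was at 1.54, 2.6, 2.18 and 1.31 TPM in vehicle libraries 2 to 5. The GLI2 coding transcript GLI2-203 was above it there, at 3.58, 4.77, 4.78 and 4.74 TPM. In treated libraries 2 to 5, GLI3-201 was at 3.33, 2.68, 2.62 and 2.02 TPM. The GLI3 transcripts outside the annotation were not examined. With the retained-intron forms counted, GLI1 exceeded GLI2 in all treated libraries. The coding transcripts GLI1-201 and GLI1-207 together were at 2.38, 2.24, 2.3 and 1.66 TPM in treated libraries 2 to 5. This is below the whole-gene level of GLI2 in each. The coding transcript GLI2-203 alone was at 2.85, 2.91, 2.14 and 2.25 TPM there. By coding transcripts, GLI1 was thus above GLI2 in treated library 4 and below it in libraries 2, 3 and 5. GLI1-201 and GLI1-207 together were at 0.261 ± 0.0423 TPM in vehicle and 2.15 ± 0.329 TPM in treated cells (SD, n = 4).

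**Figure D3:**
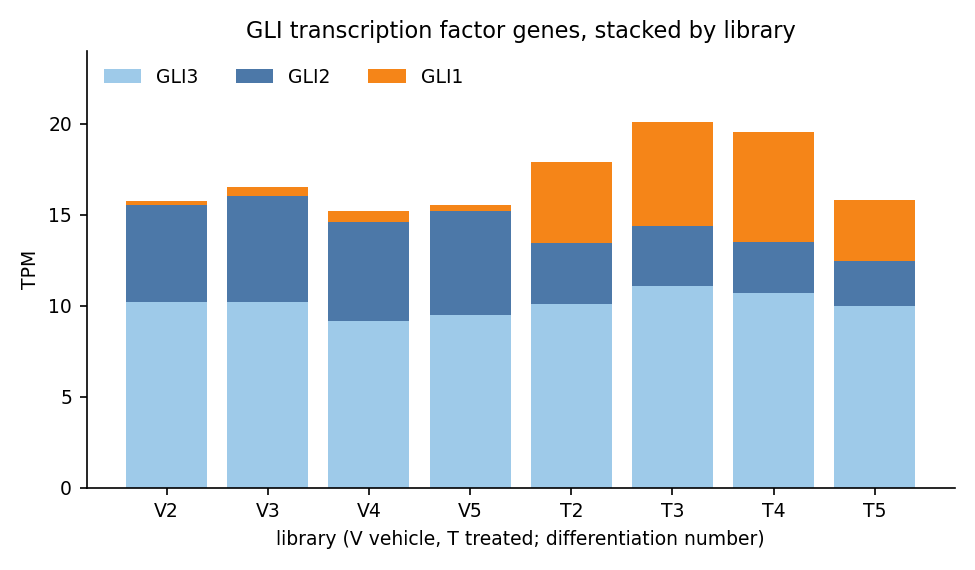
TPM of GLI3, GLI2 and GLI1 stacked for each library (V vehicle, T treated, numbers 2 to 5; vertical axis from 0). The GLI1 part is thin in the 4 vehicle libraries (1.32% to 4.06% of the sum) and wide in the 4 treated libraries (21.2% to 30.9%), and the GLI2 part is narrower in treated libraries.

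Ordered by mean TPM, vehicle cells gave SMO, PTCH1, SHH, GLI3, CDON, GLI2, BOC, GLI1 and HHIP, and only GLI1 and HHIP overlapped as neighbours in this order. Treated cells gave PTCH1, SMO, HHIP, GLI3, CDON, GLI1, GLI2, SHH and BOC, where GLI3 overlapped CDON, GLI1 overlapped GLI2, GLI2 overlapped SHH, and SHH overlapped BOC. The places of PTCH1, HHIP and GLI1 in treated cells depend on the short forms given above. Coding HHIP-201 and HHIP-202 were at means of 6.92 and 2.41 TPM there, against 10.5 TPM for GLI3 as a whole gene. The places of GLI3 and CDON rest mostly on TPM outside the annotated transcripts. By whole-gene TPM, HHIP went from the last place to the third and SHH from the third to the eighth. Treated library 5 had the lowest CPM of its group for 6 of the 9 genes (SHH, SMO, GLI1, GLI2, GLI3 and BOC). In the authors' deposited table, the log2 fold change was 3.18 for GLI1, 0.50 for CDON, 0.30 for BOC, 0.25 for PTCH1, 0.21 for GLI3, -0.65 for SMO and -0.82 for GLI2.

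Beyond the 9 genes, 117 further genes of the pathway, its cilium and its reported targets were listed by role. Of the 103 tested, 32 rose, 38 fell and 33 did not pass the threshold, with a median log2 fold change of -0.10, and 68.0% of them passed against 57.9% of all genes. These counts include GPC3, LRP2 and FOXF1, which carry no test for the reason given below. The adjusted p-values below come from the edgeR quasi-likelihood test over all 19785 genes.

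**Figure D4:**
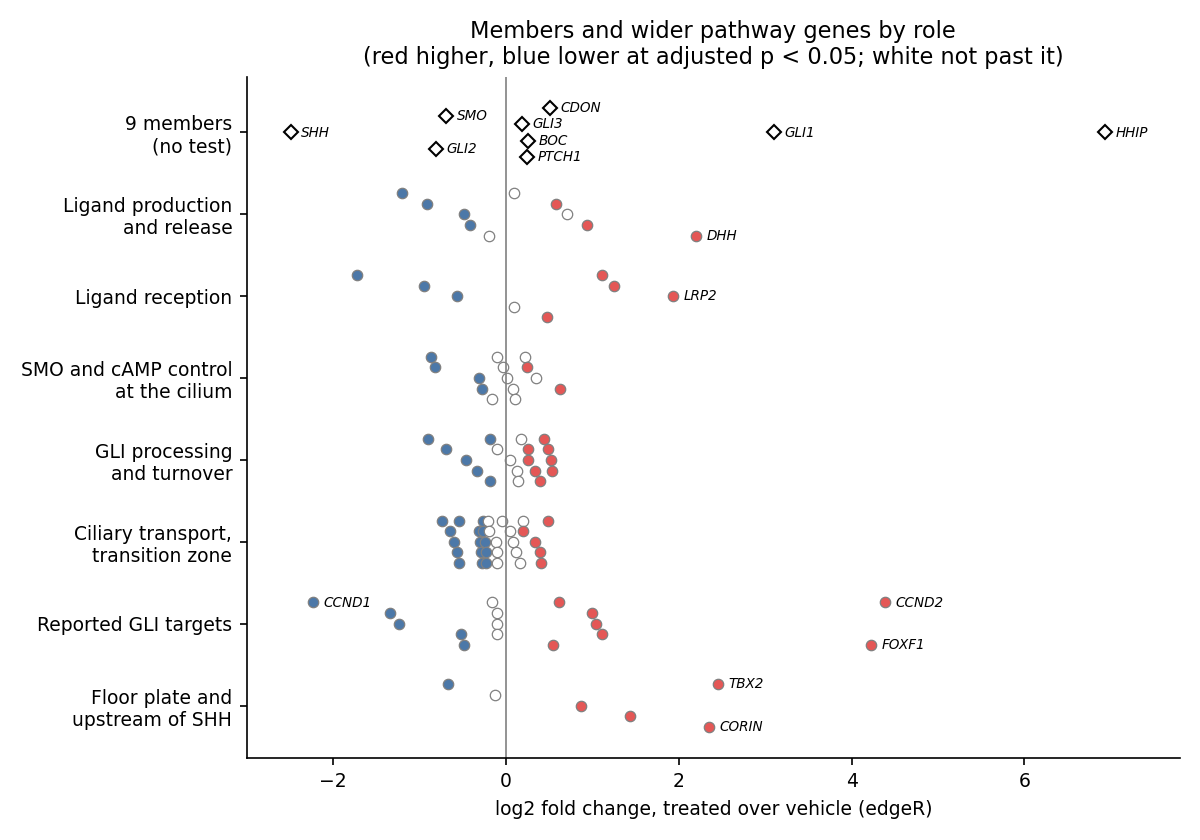
Difference between treated and vehicle cells as log2 fold change (horizontal axis) for the 9 genes (diamonds, no test) and for the tested genes of 7 wider lists (circles; red rose, blue fell, white did not pass an adjusted p of 0.05). Ciliary transport leans to the left (5 red, 15 blue), and reported GLI targets reach from CCND1 at -2.23 to CCND2 at 4.39. GPC3, LRP2 and FOXF1 are coloured by the fit but carry no test.

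Among 10 genes of ligand production and release, 3 rose, 4 fell and 3 did not pass (median -0.06). DHH, the desert hedgehog ligand gene, rose from 12 to 17 reads per vehicle library to 44 to 72 reads per treated library (log2 fold change 2.20, adjusted p = 3.5e-05), which left it at 0.247 ± 0.0590 TPM (SD, n = 4), well below SHH. IHH, the third ligand gene, was at 10 to 24 reads per vehicle and 16 to 35 per treated library and did not pass (0.71, adjusted p = 0.065). It passed with the length offset (0.72) and without treated library 5 (0.90). HHAT, which attaches palmitate to the ligand, fell from 4.04 ± 0.284 to 1.74 ± 0.2 CPM (SD, n = 4; -1.21, adjusted p = 1.1e-05). DISP1, which exports the lipid-modified ligand, rose from 26.0 ± 2.84 to 38.9 ± 2.31 CPM (SD, n = 4; 0.58, adjusted p = 2.6e-04, and 0.34 with the length offset), while its relative DISP2 fell (-0.49, adjusted p = 8.1e-04). Of the secreted SCUBE proteins that help release ligand, SCUBE2 rose (0.94, adjusted p = 4.9e-04, and 1.69 with the length offset) and SCUBE3 fell (-0.91, adjusted p = 6.9e-05). SCUBE1, named after its values were seen, also fell (-0.42, adjusted p = 0.0015). It was the most abundant of these genes, at 34.4 TPM in vehicle cells against 0.453 TPM for SCUBE2 and 1.7 TPM for SCUBE3.

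Of 8 further reception genes, 4 rose, 3 fell and 1 did not pass (median 0.28). GAS1, the third co-receptor beside BOC and CDON, fell from 39.5 ± 3.54 to 20.4 ± 3.16 CPM (SD, n = 4; -0.95, adjusted p = 6.5e-05). In vehicle cells GAS1 was the most abundant co-receptor at 34.0 ± 4.88 TPM, against 6.83 TPM for CDON and 1.68 TPM for BOC. The glypican GPC6 rose from 49.3 to 117 CPM (1.25, adjusted p = 1.5e-06), and GPC4 fell (-0.57, adjusted p = 0.0059). GPC3 was at 17 to 29 reads per vehicle and 4 to 9 per treated library (-1.73). LRP2 was at 1 to 5 reads per vehicle and 11 to 15 per treated library (1.93 by counts, 0.55 and not past the threshold with the length offset). GPC3 passed the filter on low counts only through its vehicle libraries and LRP2 only through its treated libraries. The filter thus favours the direction of each, so both carry no test here, though the counts of this list include them.

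Of 14 tested genes that control Smoothened and cAMP at the cilium, 2 rose, 4 fell and 8 did not pass (median -0.02). GPR161, a ciliary receptor that keeps cAMP high and the pathway off, fell from 109 ± 7.12 to 61.7 ± 2.22 CPM (SD, n = 4; -0.82, adjusted p = 3.7e-06). EVC, which couples Smoothened to the GLI proteins, fell from 11.6 to 6.33 CPM (-0.87, adjusted p = 1.2e-04). The arrestin genes differed little: ARRB1 fell by 0.31 on the log2 scale (adjusted p = 0.015; not past the threshold at 0.053 without treated library 4) and ARRB2 rose by 0.24 (adjusted p = 0.023). The ARRB2 call was lost with the length offset, with library totals, and without treated library 2, 3 or 4 or vehicle library 3, 4 or 5 (0.14 to 0.24). With ARRB2 lost, the count of rising genes in this list was 1 under several of these settings, and it was 4 without treated library 5, while the count of falling genes was 2 without treated library 4.

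Of 19 genes of GLI processing and turnover, 8 rose, 6 fell and 5 did not pass (median 0.14). SUFU, which holds GLI proteins inactive in the cytoplasm, fell from 69.7 ± 5.51 to 55.2 ± 4.85 CPM (SD, n = 4; -0.34, adjusted p = 0.0061). KIF7, the ciliary kinesin that organises GLI proteins at the cilium tip, fell from 12.8 ± 0.713 to 6.88 ± 0.979 CPM (SD, n = 4; -0.90, adjusted p = 6.0e-05). The ubiquitin ligase genes SPOPL (0.53, adjusted p = 4.6e-04), CUL3 (0.52, adjusted p = 4.7e-04) and FBXW11 (0.49, adjusted p = 5.4e-04) rose. Their relatives, named after their values were seen, did not follow: SPOP did not pass (0.14, adjusted p = 0.14) and BTRC fell (-0.18, adjusted p = 0.039). The kinase genes DYRK1B (-0.69, adjusted p = 7.2e-04) and DYRK2 (-0.46, adjusted p = 8.7e-04) fell.

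Of 31 genes of ciliary transport and the ciliary transition zone, through which Smoothened and GLI proteins pass, 5 rose, 15 fell and 11 did not pass (median -0.21). IFT88, a core subunit of intraflagellar transport, fell from 12.1 to 7.26 CPM (-0.74, adjusted p = 3.0e-05). KIFAP3, the accessory subunit of the motor that carries these trains, fell by 0.60 on the log2 scale (adjusted p = 9.7e-05), and the motor gene KIF17 fell by 0.55 (adjusted p = 5.1e-04). IFT20 (0.40, adjusted p = 0.0020), IFT57 (0.34, adjusted p = 0.0025) and TMEM231 (0.49, adjusted p = 6.9e-05, and 0.29 and not past the threshold with the length offset) rose.

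Reported GLI targets outside the 9 genes did not move as 1 group. Of 16 tested, 7 rose, 5 fell and 4 did not pass (median -0.11). CCND2, a D-type cyclin, rose from 4.28 ± 0.105 to 90.0 ± 1.71 CPM (SD, n = 4; 4.39, adjusted p = 1.2e-10), and CCND1, its relative, fell from 15.5 ± 1.91 to 3.31 ± 0.542 CPM (SD, n = 4; -2.23, adjusted p = 6.3e-07). MYCN, a growth regulator, fell from 78.3 to 30.9 CPM (-1.34, adjusted p = 1.8e-05), and BCL2, an inhibitor of apoptosis, rose from 7.22 to 14.4 CPM (0.99, adjusted p = 2.4e-06). The forkhead gene FOXF1, at 1 to 3 reads per vehicle and 27 to 36 per treated library, is among the 7 that rose. FOXF1 passed the filter on low counts only through its treated libraries, which favours a rise, so it carries no test here. SFRP1, a secreted Wnt antagonist, fell from 41.0 to 29.1 CPM (-0.49, adjusted p = 5.0e-05). Of the 6 cell cycle markers 5 fell, and their part in the changes of the cyclin genes was not tested.

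Floor plate genes and regulators upstream of SHH were mostly near the limit of detection: of 15 listed, 6 were tested, 4 rose and 1 fell (median 1.15). FOXA2, the defining floor plate factor, had 1 read in vehicle library 2 and 0 reads in the other 7 libraries. Of 9 floor plate markers, 8 stayed under 1 CPM in every library, and the sum of the 9 was 0.497 to 0.678 TPM in vehicle and 0.695 to 0.993 TPM in treated libraries. SHH message in vehicle cells thus stood beside FOXA2 at or near 0. TBX2, a T-box repressor, rose from 0.155 to 0.859 CPM (2.45, adjusted p = 7.1e-06) and CORIN, a floor plate surface protease, from 0.164 to 0.844 CPM (2.35, adjusted p = 3.3e-05). SOX2, a neural progenitor factor, rose from 0.315 to 0.85 CPM (1.43, adjusted p = 1.9e-04), and NTN1, the netrin 1 gene, fell from 0.741 to 0.467 CPM (-0.67, adjusted p = 0.0021).

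The annotated genes whose start lies within 250 kb of the start of SHH or HHIP were also read from the all-gene fit. Near HHIP 7 are annotated, and HHIP-AS1 was the 1 tested. Near SHH 4 are annotated and 3 were tested, with starts 167 to 168 kb downstream. RBM33, a gene for an RNA-binding protein, rose from 109 ± 11.5 to 170 ± 5.52 CPM (SD, n = 4; 0.64, adjusted p = 6.2e-05, and 0.47 and not past the threshold with the length offset). RBM33-DT, its divergent transcript, fell from 1.78 to 0.8 CPM (-1.16, adjusted p = 6.0e-05), and the overlapping ENSG00000283128 rose from 0.908 to 1.48 CPM (0.71, adjusted p = 0.0057). Only RBM33-DT went in the direction of SHH, and reads of these overlapping genes may be shared. Of other genes that overlap one of the 9 (examined after their values were seen), the antisense ENSG00000271155 in PTCH1 fell from 2.06 to 0.712 CPM (-1.53, adjusted p = 5.6e-05) and CFAP44, which overlaps the end of BOC, from 12.9 to 8.2 CPM (-0.65, adjusted p = 5.5e-04). ENSG00000285713, a coding gene annotated across HHIP on the opposite strand, rose from 0.283 to 0.49 CPM (0.79, adjusted p = 0.0083).

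The genes most like SHH and HHIP over the 8 libraries were sought among the 11115 named genes that averaged at least 5 CPM, as the root mean square difference of log2 CPM profiles, each taken relative to its vehicle mean. This measure follows the size of the group difference above all and has no test. For SHH they were the keratin gene KRT40 (difference 0.190; 132 to 25.4 CPM), CCND1 (0.243) and HES2, a gene of the hairy family of repressors (0.287; 14.7 to 3.30 CPM). With the length offset, the log2 fold change of HES2 went from -2.16 to -1.42, while that of SHH was -2.51. For HHIP the most similar genes were the netrin receptor gene UNC5B (0.201; 2.38 to 258 CPM) and the bZIP transcription factor genes CEBPB (0.360; 0.695 to 72.8 CPM) and JDP2 (0.5; 0.0994 to 20.3 CPM). CCND1, a reported GLI target, thus had a profile close to that of SHH, and CCND1 and SHH differed in level, at 8.36 ± 1.40 and 13.5 ± 1.88 TPM in vehicle cells (SD, n = 4).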

How the data were processed

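Poly(A) RNA libraries of 4 treated and 4 vehicle LUHMES batches were analysed. For each library the authors deposited a table of genes and one of transcripts; per the file headers they hold estimated counts, TPM and effective lengths. No source used here gives the quantifier or the use of strand. HISAT2, SAMtools, StringTie and hg38 are named per the submitters' processing notes, without versions. A further table deposited by the authors for coding genes has, per the file headers, a log2 fold change, p-values, false discovery rates and a signal per library, of which only the log2 fold change was used. FPKM tables of lncRNAs were not used here.

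Estimated counts were rounded to whole numbers, filtered with filterByExpr, scaled with TMM factors and compared between groups with edgeR 4.0.16 in R 4.3.3 (glmQLFit, glmQLFTest), without covariates and Benjamini-Hochberg adjustment over 19785 genes. The SE is the fold change divided by the square root of F. CPM used TMM-scaled library sizes. The edgeR steps were also run on simulated counts with few genes changed, evenly up and down, and the same dispersion for every gene. In these data 57.9% of genes passed and vehicle library 2 stood apart. The simulation therefore cannot show how the fit performs here. The 9 genes, the gene lists, the marker lists and the tests were chosen with earlier results of these data known. Named genes are the 9 genes, 12 genes reported whatever their result, up to 3 rising and 3 falling genes per list with the smallest adjusted p, the tested neighbours of SHH and HHIP within 250 kb, and the 3 most similar profiles for each. Some genes of this rule are not reported here. DDC, SLC18A2, PITX3 and ALDH1A1 are named as markers under 1 CPM, after their values were seen, as were the genes within 10 kb of the 9. Symbols matched 62684 of 62826 genes, and 58262 had coordinates in GENCODE release 29. Promoter windows came from RefSeq (GRCh38.p14). Chi-square per degree of freedom between libraries of a group was 12.8 to 394, so no 2 libraries agreed within sampling noise. Batches are independent by the series text, and it is not stated how the technical replicates entered a library. Alternatives were DESeq2 1.42.0, its size factors, library totals, no filter on low counts, a length offset, a replicate block and each library left out.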

Additional observations from a re-analysis of the deposited data

Results flagged for a closer look

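Of 119 groups of 4 libraries examined, 11 had a library far from the other 3 by Dixon's criterion, which chance meets in about 1 in 20 groups. Among the 9 genes, SMO stood at 35.1 CPM in vehicle library 2 against 51.8 to 52.8 CPM in the other vehicle libraries, and GLI1 at 3.14 CPM in treated library 5 against 4.79 to 5.06 CPM in the other treated libraries.

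In the same treated library 5, EVC was at 4.98 CPM (others 6.74 to 6.82) and KRT40 at 24 CPM (others 25.7 to 26.0). In vehicle library 2, FBXW11 was at 104 CPM (others 125 to 128) and FOXA2, from 1 read, at 0.0110 CPM (others 0). In vehicle library 3, ARRB1 was at 73.4 CPM (others 57.5 to 58.5) and JDP2 at 0.154 CPM (others 0.0777 to 0.0882). In vehicle library 4, LRP2, from 1 read, was at 0.00972 CPM (others 0.0432 to 0.0452), SOX2 at 0.447 CPM (others 0.253 to 0.285) and RBM33-DT at 2.12 CPM (others 1.64 to 1.69).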

How the results depend on the processing

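Under 14 alternative settings, each of the 9 genes kept the sign of its log2 fold change, and 5 of 126 values for these genes moved by more than the spread between replicates: HHIP (6.06), GLI1 (3.64) and PTCH1 (0.47) with the length offset, and PTCH1 (0.14) and CDON (0.41) with library totals. SHH ranged from -2.61 to -2.38. Library totals shifted the median log2 fold change of all genes by -0.098 and gave 4280 higher and 7023 lower genes, against 5484 and 5977. Leaving out 1 library gave 4914 to 6170 higher and 5300 to 6532 lower genes, and among the wider lists 29 to 36 higher and 32 to 38 lower. As for the edgeR threshold, PTCH1 fell short of it with library totals, GLI3 passed it without vehicle library 2 and BOC without treated library 5. The 81 results and 1133 comparisons include counts of genes, which have no sign. No log2 fold change among them reversed its sign. Whether libraries of the same differentiation number in the 2 groups came from the same cells is not stated. Deviations of same-numbered libraries from their group means correlated at -0.080, 0.032, 0.025 and -0.001, and no treated library correlated best with its own number. With 1 library per number and group, and vehicle library 2 set apart, these correlations cannot decide on pairing. With the number as a replicate block, 5163 genes were higher and 5601 lower, SHH was at -2.51 and HHIP at 6.94. Depth limits HHIP, GLI1 and the floor plate genes in vehicle cells, which rest on few reads.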
